A study of Anolis carolinensis with 142 samples.

Results

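The day-night difference in the skin of green anoles (*Anolis carolinensis*) was measured in 31 of the 142 RNA sequencing libraries of the study, those of dorsal skin and ventral skin labelled Midnight or Midday. They came from 16 of the 24 wild-type adults, caught in the wild during the breeding season and assigned to treatments at random, with 4 males and 4 females in each treatment. Midday animals were killed shortly after noon, and Midnight animals from late evening to just after midnight, in the dark under a red torch. Each animal gave 1 library per site, so the groups were 8 dorsal Midday, 8 dorsal Midnight, 7 ventral Midday and 8 ventral Midnight libraries. The ventral library of Midday female 2 was not analysed here. Each treatment was sampled in a single window, so the comparison is of a pair of times and not of a rhythm. All animals had been caught by day.

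Most vertebrate cells carry a circadian clock, a feedback loop in which transcription factors switch on the genes of their own inhibitors, so that the levels of these genes and of many downstream genes rise and fall once a day. In mammals, skin clocks are known to time cell division, DNA repair and barrier formation in the epidermis. Lizard skin is covered by a cornified epidermis of keratins and corneous proteins that is renewed in shedding cycles, and below it lie pigment cells that are used in colour change. The deposited gene identifiers could not be paired with gene names, so genes are described here by position, gene structure, level and behaviour in other tissues, and no clock gene could be pointed out.

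Total counts ran from 10257388 to 25795629 per skin library. Genes enriched in skin had at least 5 CPM (counts scaled to the library total) in the skin of animals kept under light at night. They also lay at least 8-fold above every other tissue. These genes took 9.47% to 34.5% of the counts of each skin library, against at most 0.914% in any library of another tissue. The definition of the list largely fixed the low share outside skin. The share of even values among gene counts between 1 and 20 put 7 of the 31 libraries in a low class, at 41.6% to 44.4% with totals of 10257388 to 12682149, and the other 24 in a high class, at 60.7% to 65.9% with totals of 20240586 to 25795629. The low class held 6 of 8 dorsal Midday, 1 of 7 ventral Midday and 0 of 16 Midnight libraries, so it was entered in the fit as a term. That term itself was called in 11 of 17006 genes (0.0647%). Of the 11, 1 was also called higher at Midnight below, a gene of 2 exons on scaffold GL344172.1. Its class term was a log2 of 1.00 (adjusted p = 0.027, limma). Its medians at Midday and Midnight were 14.6 and 14.5 CPM in dorsal skin, and 9.66 and 15.8 CPM in ventral skin. The part of the class in its call was not tested. Standing apart were 5 libraries of 4 animals, with correlations to the other libraries of their site over 5 median absolute deviations below the typical library. Eye-enriched genes took 17.9% of the counts in ventral skin of Midnight female 1 and 10.6% in ventral skin of Midday female 4, against a median of 0.113%, and exceeded 1% in 6 libraries in all, 5 of them Midnight. In dorsal skin this share was 0.080% to 0.296% at Midday (median 0.108%) and 0.107% to 2.11% at Midnight (median 0.469%), and in ventral skin the medians were 0.113% and 0.105%. Its part in the day-night differences was not tested beyond the fit without those 6 libraries.

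In the fit over both sites, 66 of 17006 genes differed between Midnight and Midday at an adjusted p under 0.05 (limma-voom with the animal as a random block and Benjamini-Hochberg adjustment). Of these, 27 genes (0.159% of those tested) were higher at Midnight and 39 (0.229%) were lower. The changes were larger among the genes that were higher, with a median log2 change of 1.54 in size, than among the genes that were lower, with 1.06, where the median size over all genes tested was 0.25. A log2 change over 2 in size was measured for 12 of the 27 and 3 of the 39. Among all genes tested 159 had such a change, and of the 144 of these that were not called 128 were positive and 16 negative. The excess of large positive changes was thus not particular to the called genes. The genes that were higher had a median level of 24.4 CPM, against 77.3 CPM for those that were lower. The sizes are therefore not compared at equal level, and a gene of low level needs a larger change to be called. In bulk tissue, fewer cells of a type and less RNA per cell cannot be told apart. Libraries of the same animal were correlated at 0.535 after the fitted terms. All 66 genes kept their sign without each animal in turn, which their choice on the same libraries largely fixed. Of the 66, 16 genes, 7 higher and 9 lower, were called in all 16 of these fits. The number of calls was 38, 17 and 32 without Midday females 1 and 3 and Midday male 1, 27 and 34 without Midnight female 3 and Midnight male 3, 128 without Midnight female 2, and 329 without Midday male 2, both of whose libraries stood apart. Without the 5 libraries that stood apart 242 genes were called, 58 of the 66 among them, and without the 6 libraries over 1% eye-enriched counts 23 were called, 22 of them among the 66.

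The gene of smallest p among those higher at Midnight was ENSACAG00000002847, which has 8 exons on chromosome 6 (chr6:69322100-69337242, minus strand). In dorsal skin its level ran from 22.1 to 47.4 CPM at Midday, with a median of 32.4, and from 103 to 277 CPM at Midnight, with a median of 176. In ventral skin it ran from 21.7 to 52.1 CPM at Midday (median 35.3) and from 125 to 305 CPM at Midnight (median 203). Every Midnight library lay above every Midday library at both sites. The lowest and the highest Midnight value came from the same animals at both sites, Midnight male 4 with 103 and 125 CPM and Midnight female 2 with 277 and 305 CPM. The gene rose 5.75-fold, a log2 change of 2.52 ± 0.20 (SE; adjusted p = 1.75e-09, limma). Its neighbour 14110 bases before it on the chromosome, a gene of 9 exons on the plus strand, was higher by a log2 of 0.67 ± 0.15 (adjusted p = 0.0384, limma), with ventral levels of 6.60 to 10.9 CPM at Midday and 11.4 to 21.0 CPM at Midnight. That call held in 7 of the 16 fits without an animal, and the 3 other genes tested within 200000 bases of the pair did not pass the test.

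ENSACAG00000014818, a gene of 12 exons on an unplaced scaffold (GL344063.1:70406-82200, plus strand), ranked next among the genes that rose. Its dorsal levels were 6.27 to 36.4 CPM at Midday (median 17.9) and 64.2 to 127 CPM at Midnight (median 75.6). Its ventral levels were 7.81 to 20.0 CPM at Midday (median 16.6) and 42.4 to 193 CPM at Midnight (median 88.2). The groups did not overlap at either site, and Midday female 3 was lowest at both. The rise was 5.90-fold, a log2 change of 2.56 ± 0.27 (SE; adjusted p = 1.15e-06, limma).

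Among the genes that fell, ENSACAG00000040060 showed the largest change. It is a short gene of 2 exons and 390 bases on chromosome 2 (chr2:28875193-28876900, minus strand). At Midday its level was 47.7 to 81.4 CPM in dorsal skin (median 71.7) and 42.7 to 93.6 CPM in ventral skin (median 62.9). At Midnight it was 1.95 to 11.9 CPM in dorsal skin (median 4.95) and 1.71 to 12.4 CPM in ventral skin (median 4.38). The highest of the 16 Midnight values was thus well below the lowest of the 15 Midday values, and the gene was 12.5-fold lower at Midnight, a log2 change of -3.64 ± 0.26 (SE; adjusted p = 3.16e-10, limma). ENSACAG00000012009, of 3 exons and 783 bases on a scaffold (GL343207.1:1680007-1681252, plus strand), was 3.88-fold lower, with a log2 change of -1.96 ± 0.24 (adjusted p = 1.88e-05). Its dorsal levels fell from 77.3 to 161 CPM at Midday (median 134) to 16.6 to 63.7 CPM at Midnight (median 18.1), without overlap. In ventral skin the ranges overlapped, with 54.2 to 150 CPM at Midday (median 96.6) and 15.3 to 62.2 CPM at Midnight (median 22.0). The highest Midnight value at both sites, 63.7 and 62.2 CPM, came from Midnight male 4, whose other Midnight companions reached at most 27.5 CPM in dorsal and 42.6 CPM in ventral skin. Testes-enriched genes took 1.06% and 1.45% of the counts of the 2 libraries of that animal, against medians of 0.327% and 0.342% in their groups, and the part of this in the gene's level was not tested.

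**Figure D1:**
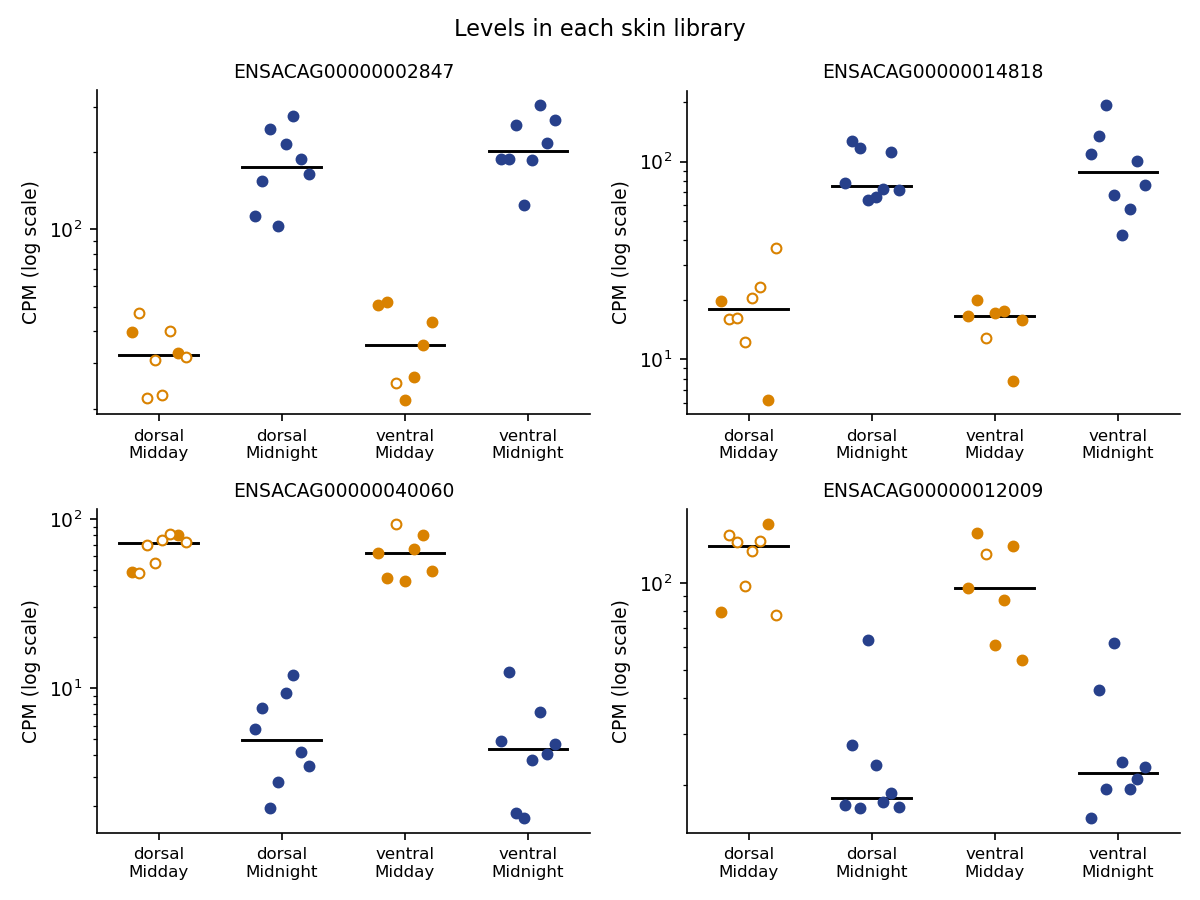
Level of 4 genes in each of the 31 skin libraries, in CPM on a log scale, by site and treatment (orange Midday, blue Midnight). Filled points are libraries of the high class of even counts, open points of the low class, and bars are medians. The groups of ENSACAG00000002847, ENSACAG00000014818 and ENSACAG00000040060 do not overlap at either site, and in ENSACAG00000012009 the ventral groups do.

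The 4 genes gave nearly the same changes in the 24 libraries of the high class of even counts alone, with log2 changes of 2.52, 2.58, -3.63 and -1.92, each called (limma). All 66 genes kept their sign in those libraries and had an unadjusted p under 0.05, and 22 were called. The low class held Midday libraries alone, so with the class term it adds little to the contrast of Midnight with Midday. The agreement with the main fit was therefore largely fixed by the design. Groups that did not overlap at either site were found for 4 of the 27 genes that were higher, against 4 of all 17006 genes (0.0235%), and for 4 of the 39 that were lower, again against 4 of all genes (0.0235%). The calls were made on these same libraries, which largely fixed that all genes without overlap are among the called. Besides the named genes, those without overlap were a gene of 4 exons on scaffold GL343279.1 and a liver-enriched gene described below, both higher, and 3 lower: a gene of 22 exons on chromosome 3 and single-exon genes on chromosomes 4 and 3. The single-exon gene on chromosome 4 (chr4:101941554-101942498, plus strand) had dorsal levels of 74.6 to 135 CPM at Midday and 22.2 to 66.0 CPM at Midnight, and ventral levels of 75.7 to 186 CPM and 24.3 to 72.5 CPM. Its log2 change was -1.29 ± 0.19 (SE; adjusted p = 2.32e-04, limma), and its change in brain, eye and liver did not pass the test.

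Dorsal and ventral skin were compared to ask whether the side of the body changes the day-night difference. No gene differed between the sites in its change (0 of 17006, 0%, limma, with 884 at an unadjusted p under 0.05). The edgeR quasi-likelihood test without an animal block called 0, with 356, but it does not use the pairing of the 2 sites of an animal. The comparison is limited by the counting class, which was low in 6 of 8 dorsal but 1 of 7 ventral Midday libraries. With the class term the dorsal change rested in large part on the 2 dorsal Midday libraries of the high class. Without that term 0 genes were called too, with 789 at an unadjusted p under 0.05 (limma). Each site was also fitted alone, by edgeR's quasi-likelihood test in place of limma. In these fits 65 of the 66 genes were tested at both sites and all 65 had the same sign at both. The choice of these genes in a joint fit of the same libraries largely fixed that. The median change of the genes that were higher was a log2 of 1.62 in dorsal and 1.58 in ventral skin, and that of the genes that were lower was -1.15 and -1.03. For the 4 named genes the change in ventral skin minus that in dorsal skin was 0.20 ± 0.25, 0.05 ± 0.35, -0.46 ± 0.30 and 0.30 ± 0.29 (log2, SE), in the order given above. The difference between sites had an unadjusted p under 0.05 (limma) in 5 of the 66, against 884 of all 17006 genes, and none passed the adjusted test. With the sites taken alone only 3 genes were called in dorsal skin, 2 of them among the 66, and 11 in ventral skin, all among the 66 (edgeR's quasi-likelihood test).

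**Figure D2:**
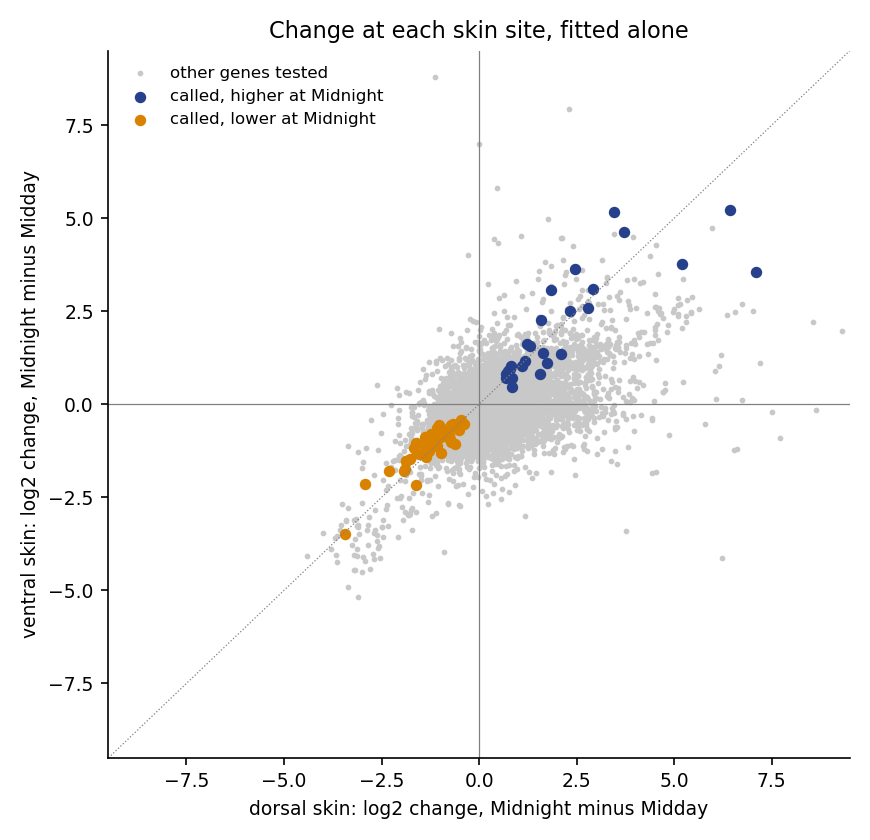
Log2 change from Midday to Midnight in dorsal skin (horizontal) and ventral skin (vertical), each site fitted alone by edgeR's quasi-likelihood test, for all genes tested at both. Grey points are genes not called in the joint fit, and the dotted line marks equal change. The called genes have the same sign at both sites, which their choice in the joint fit of these libraries largely fixed.

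Males and females were compared in the same way, and 0 of 17006 genes (0%) differed between them in the day-night change (limma, with 242 at an unadjusted p under 0.05). The edgeR quasi-likelihood test without an animal block called 1, with 958 at an unadjusted p under 0.05. The change in males minus that in females was -0.46 ± 0.36 for ENSACAG00000002847, 0.48 ± 0.49 for ENSACAG00000014818, -0.22 ± 0.50 for ENSACAG00000040060 and 0.48 ± 0.44 for ENSACAG00000012009 (log2, SE). With 4 animals of each sex per treatment the standard errors of these differences were 0.36 to 0.50.

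Brain, eye and liver of the same animals, with 16 libraries each, showed which of the skin changes were shared. At Midnight 0.212% of genes tested were higher and 0.737% lower in brain, 0.928% and 0.805% in eye, and 0.944% and 1.55% in liver (limma, each tissue fitted alone). Of the 27 genes higher in skin, 3 of 21 tested were also higher in brain, 7 of 21 in eye and 5 of 21 in liver. Of the 39 that were lower, 10 of 39 were also lower in brain, 12 of 38 in eye and 9 of 37 in liver. These shares are above the background of each tissue, but the tissues come from the same animals. In all, 28 of the 66, 10 higher and 18 lower, were called the same way in at least 1 of these tissues, and 6 in all 3 of them. These counts include 1 gene on scaffold GL344789.1, higher in each tissue, whose level split the animals alike in every tissue, as described below. Its calls in several tissues are therefore not separate results. ENSACAG00000002847 rose in each: from 32.8 ± 5.33 to 115 ± 21.7 CPM in brain, from 52.1 ± 14.9 to 477 ± 41.0 in eye and from 22.7 ± 15.3 to 64.2 ± 30.4 in liver (SD, n = 8 per group). ENSACAG00000012009 fell in each, by log2 changes of -1.49 in brain, -2.29 in eye and -2.53 in liver, with adjusted p-values up to 0.013 (limma). The change in skin minus the mean of the other tissues was 0.13 ± 0.23 for the first and 0.01 ± 0.30 for the second (log2, SE).

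The other 4 genes called in all these tissues were 3 that fell and 1 that rose, described last. The gene of 11 exons at chr6:22568817-22580232 (minus strand) had a log2 change of -2.7 ± 0.50 in skin (SE; adjusted p = 0.0075, limma), and its log2 changes were -1.11 in brain, -1.37 in eye and -3.06 in liver. Its dorsal levels were 634 to 3294 CPM at Midday and 60.9 to 431 CPM at Midnight, without overlap. Its ventral levels overlapped, with 255 to 3036 CPM at Midday and 50.1 to 1413 CPM at Midnight, where the highest value came from the library with 17.9% eye-enriched counts and the next was 325 CPM. The gene of 22 exons at chr3:28004348-28050917 (plus strand) was 79.1 to 235 CPM in dorsal skin at Midday and 35.2 to 76.8 CPM at Midnight, with 75.9 to 177 CPM and 28.5 to 48.5 CPM in ventral skin. The third, of 26 exons on scaffold GL343400.1 (436128 to 468776, minus strand), had log2 changes of -1.43 in skin and -2.46 in brain, where medians were 223 CPM at Midday and 39.0 CPM at Midnight. In skin its 2 highest Midnight values, 151 CPM in dorsal and 189 CPM in ventral skin, again came from Midnight male 4. The groups of this gene overlapped at both skin sites. Its skin call held neither in the high class of even counts alone (adjusted p = 0.067, limma) nor without the libraries over 1% eye-enriched counts (adjusted p = 0.125).

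The difference between the change in skin and the mean change of brain, eye and liver was tested in a single fit, which gave 264 of 18740 genes (1.41%). Among the 66 it called 26, 9 higher and 17 lower, and in all 26 the change in skin was the further from 0, a direction that the choice of these genes for their change in skin favours. Without an animal the total ran from 70 (without Midday male 1) to 857 (without Midday male 2). This fit takes the spread of a gene to be the same in all tissues. It also uses a single correlation of 0.131 between any libraries of an animal, where the skin fit gave 0.535. The 2 skin sites thus count as nearly independent, and the standard errors and adjusted p-values of this fit may be too small. For ENSACAG00000014818 the difference was a log2 of 1.74 ± 0.28 (SE; adjusted p = 7.70e-05, limma), with brain levels of 78.3 ± 37.1 CPM at Midday and 97.1 ± 35.8 at Midnight (SD, n = 8 per group). Of the other tissues alone the gene was called in liver, where it rose from 5.21 ± 2.54 to 11.8 ± 5.28 CPM, a log2 change of 1.32 ± 0.29 (adjusted p = 0.024), while its eye levels were 18.4 ± 4.55 and 27.7 ± 7.64 CPM. For ENSACAG00000040060 it was -2.64 ± 0.26 (adjusted p = 3.86e-11), with eye levels of 18.5 ± 2.82 and 10.4 ± 6.05 CPM and brain levels of 5.74 ± 0.74 and 4.72 ± 2.35 CPM. The fall in eye passed the test (log2 change of -0.97 ± 0.22, adjusted p = 0.035), and in liver its levels were 2.03 ± 1.68 and 0.49 ± 0.32 CPM, a log2 change of -1.77 ± 0.52 that did not (adjusted p = 0.078). The gene of 26 exons at chr5:45887899-46040777 (minus strand) went the opposite way in liver. Its median fell from 243 to 60.9 CPM in dorsal skin and from 252 to 56.3 CPM in ventral skin, a log2 change of -1.73 ± 0.31 (SE; adjusted p = 0.0057, limma), and rose from 31.8 to 104 CPM in liver, by 2.09 ± 0.39 (adjusted p = 0.0122). Its groups overlapped at both skin sites, and the difference was -2.41 ± 0.29 (adjusted p = 7.86e-08). Its call in skin did not hold without the libraries over 1% eye-enriched counts (adjusted p = 0.058, limma). Opposite calls were also made in brain for 2 genes higher in skin. These genes, and those of the next paragraphs, were singled out after their values were seen.

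**Figure D3:**
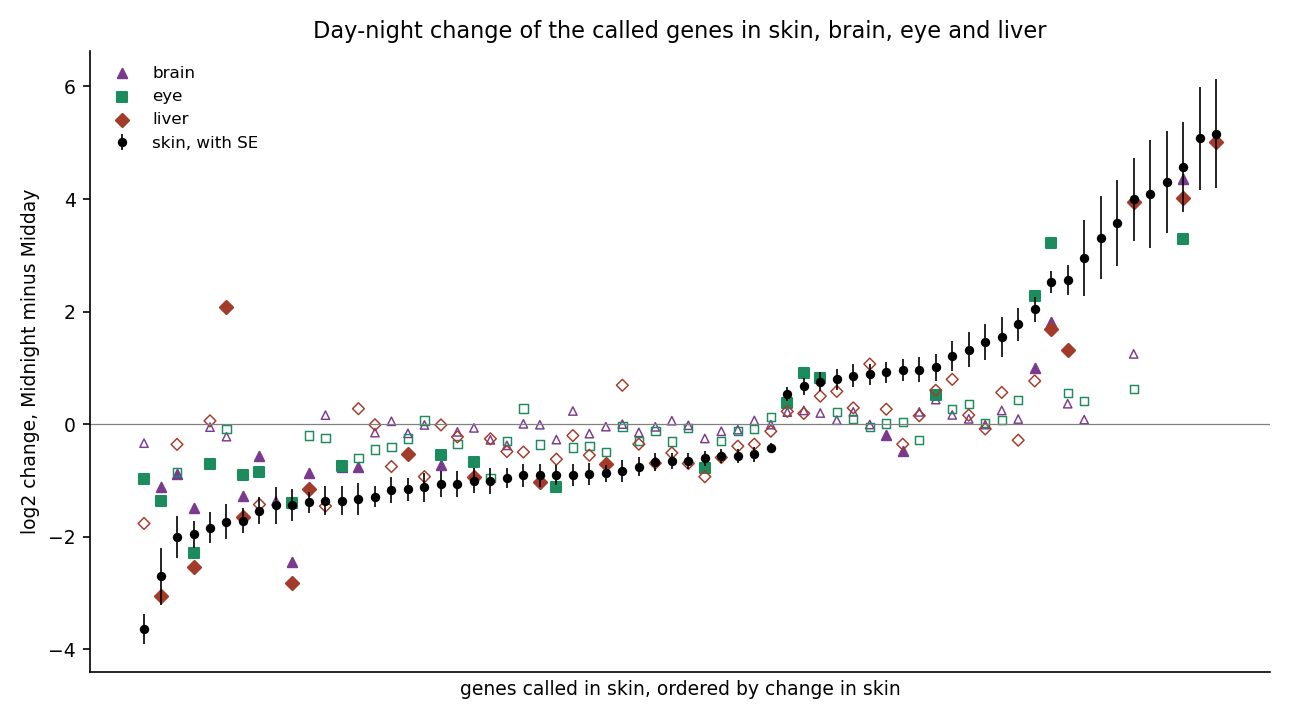
Log2 change from Midday to Midnight of the 66 genes called in skin, ordered by the change in skin. Black points are skin with standard errors from the joint fit, and coloured symbols are brain, eye and liver, each fitted alone, filled where called. Genes tested in fewer tissues have fewer symbols. The gene 6th from the left is lower in skin and higher in liver.

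Genes enriched in skin made up 4 of the 27 that were higher (14.8%) and 1 of the 39 that were lower (2.56%), where 181 of all 17006 genes tested (1.06%) were skin-enriched. That list was chosen on skin under light at night, so a gene low at Midday could enter it by a high level there. The part of this choice in the shares was not tested. Of the 4 that were higher, 3 lay on a single scaffold, GL343369.1. The gene with the largest change there (1021906 to 1024549, plus strand, 2 exons) had dorsal levels of 0.527 to 15.5 CPM at Midday (median 1.79) and 0.418 to 61.3 CPM at Midnight (median 12.3), which overlapped. In ventral skin it had 1.61 to 6.80 CPM at Midday (median 3.40) and 43.9 to 292 CPM at Midnight (median 59.4), without overlap. Its log2 change was 5.08 ± 0.91 (SE; adjusted p = 0.0057, limma), and it was called in all 16 fits without an animal. The single-exon gene 56110 bases before it (965459 to 965796, minus strand) had 5.03 to 20.0 CPM at Midday and 42.1 to 1234 CPM at Midnight in ventral skin, but its dorsal groups overlapped, with 2.63 to 58.0 CPM and 1.80 to 366 CPM. It had a log2 change of 4.08 ± 0.96 (adjusted p = 0.0495). The third (169895 to 175505, plus strand, 4 exons) had ventral levels of 7.94 to 123 CPM at Midday, where the next highest was 14.9 CPM, and 66.3 to 692 CPM at Midnight, and dorsal levels of 3.08 to 70.5 CPM and 2.97 to 168 CPM. The groups overlapped at both sites, with a log2 change of 3.31 ± 0.74 (adjusted p = 0.0384). Both of the latter were called in 5 of the 16 fits without an animal. None of the 3 was called in the high class of even counts alone (adjusted p = 0.067, 0.152 and 0.149, limma). Without the libraries over 1% eye-enriched counts the first was called (adjusted p = 0.014, limma) and the others were not (0.159 and 0.172). Midnight male 2 gave the highest ventral level of each.

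In all, 10 skin-enriched genes of that scaffold were tested, of which 3 were called. Each of the 10 had a positive log2 change, from 0.21 to 5.08 with a median of 2.59. The scaffold was singled out for its called genes, and all 10 were measured in the same animals. Their signs are therefore not separate results. Over all 181 skin-enriched genes 121 changes were positive and 60 negative, with a median of 0.22, and over all genes tested the median was 0.01. These signs may also reflect the choice of the list on skin under light at night, which was not tested. On scaffold GL343275.1 the 6 skin-enriched genes had negative changes, from -0.81 to -0.05, with none called. The share of counts in skin-enriched genes had medians of 14.8% at Midday and 14.7% at Midnight in dorsal skin, and 18.6% and 17.6% in ventral skin. The highest shares were 19.8% and 23.6% in dorsal skin, and 21.3% and 34.5% in ventral skin. Both Midnight maxima came from Midnight male 2, and Midnight female 3 was next in ventral skin with 27.7%. These ventral libraries also held the highest ventral levels of the skin-enriched genes called higher. The part of this share in those changes was not tested. The fourth skin-enriched gene that was higher, of 9 exons on scaffold GL343245.1, had ventral levels of 1.23 to 33.6 CPM at Midday and 26.9 to 249 CPM at Midnight, and dorsal levels of 2.39 to 24.3 CPM and 2.97 to 75.8 CPM, with overlap at both sites. Its log2 change was 3.57 ± 0.76 (adjusted p = 0.0294, limma). It was called in 10 of the 16 fits without an animal, and neither in the high class of even counts alone (adjusted p = 0.134) nor without the libraries over 1% eye-enriched counts (adjusted p = 0.102). The highest Midday level of this gene at each site came from Midday male 2. Its class term was a log2 of 1.43 that was not called (adjusted p = 0.981, limma), and the part of this in its fitted size was not tested. The one skin-enriched gene that was lower, of 10 exons on chromosome 3 (chr3:192100649-192114354, plus strand), had dorsal medians of 668 CPM at Midday and 234 CPM at Midnight and ventral medians of 681 and 209 CPM, with overlapping groups and a log2 change of -1.45 ± 0.33 (adjusted p = 0.0397). It was called in 3 of the 16 fits without an animal. The call held neither in the high class of even counts alone (adjusted p = 0.149, limma) nor without the libraries over 1% eye-enriched counts (adjusted p = 0.227).

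A pair of neighbouring genes that are enriched in liver were nearly off in skin by day and on at night. They lie 9251 bases apart on scaffold GL343337.1, on opposite strands. The first (552516 to 553130, minus strand, 1 exon) had dorsal levels of 0 to 1.16 CPM at Midday (median 0.21) and 5.10 to 20.8 CPM at Midnight (median 8.68). Its ventral levels were 0.080 to 5.10 CPM at Midday (median 0.249) and 2.49 to 17.8 CPM at Midnight (median 7.75). The ventral Midday value of 5.10 CPM came from the library of Midday female 4, with 5.82% liver-enriched counts, and the next was 0.740 CPM. The second (562381 to 563199, plus strand, 2 exons) had 0 to 0.681 CPM at Midday and 4.65 to 22.0 CPM at Midnight in dorsal skin, and 0 to 0.520 CPM and 1.47 to 23.3 CPM in ventral skin, without overlap at either site. Their log2 changes were 3.99 ± 0.74 and 5.16 ± 0.97 (SE; adjusted p = 0.0075 and 0.0084, limma), and they depend on how counts near 0 are handled. In liver the first had a median of 19.2 CPM at Midday and 119 CPM at Midnight and the second 2.12 and 55.0 CPM, with log2 changes of 3.95 ± 0.94 and 5.01 ± 0.90 (adjusted p = 0.0374 and 0.0104). The other 13 genes tested within 200000 bases did not pass the test. Liver-enriched genes took a median of 0.620% of dorsal counts at Midday and 0.581% at Midnight, and 0.556% and 0.50% of ventral counts, and their part in these values was not tested. Without the 5 libraries that stood apart the log2 changes were 5.00 and 5.95, both called.

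**Figure D4:**
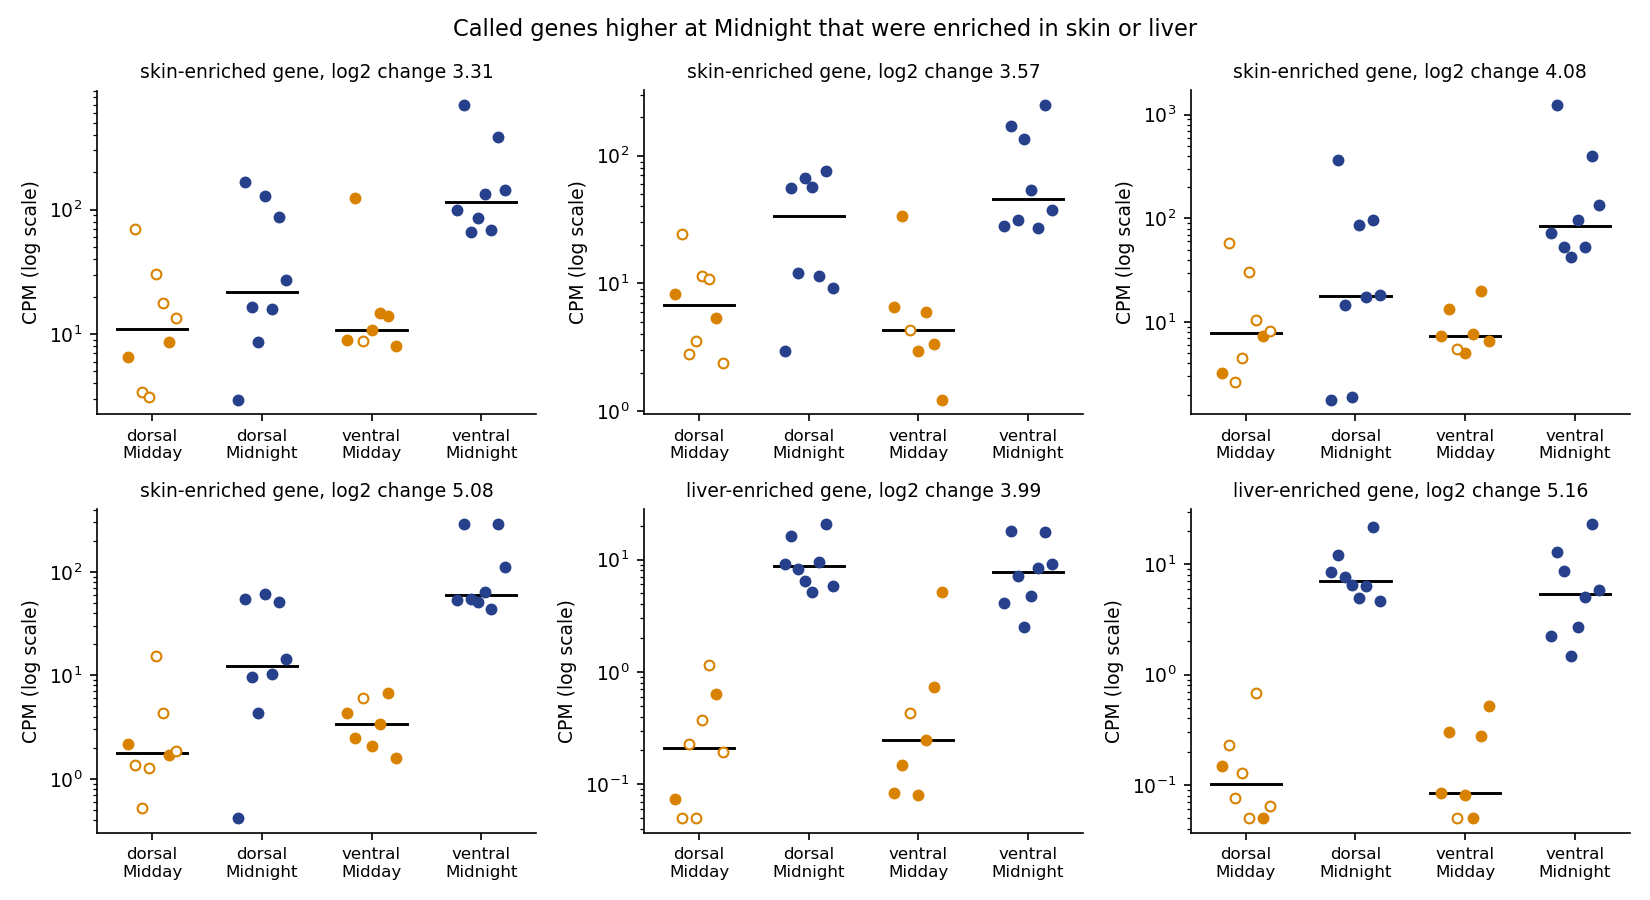
Level in each skin library, in CPM on a log scale, of the 6 called genes that were higher at Midnight and enriched in skin or in liver, by site and treatment (orange Midday, blue Midnight). Open points are libraries of the low class of even counts, bars are medians, and values under 0.05 CPM are drawn at 0.05. The skin-enriched genes separate the groups more in ventral than in dorsal skin, a difference that did not pass the test, and the liver-enriched genes separate them at both sites apart from 1 ventral Midday library in the gene with a log2 change of 3.99.

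One gene that passed the test in skin, brain, eye and liver had either a low or a high level in each animal. This gene of 5 exons on scaffold GL344789.1 (10363 to 15428, plus strand) had a log2 change of 4.56 ± 0.80 in skin (SE; adjusted p = 0.0045, limma). Across all treatments and tissues its level split the animals into 9 low and 15 high, and each animal was on the same side in every tissue sampled. In dorsal skin the low animals had 0.040 to 0.383 CPM and the high animals 2.68 to 10.5 CPM, and in brain the low animals had 0.0515 to 0.633 CPM and the high animals 7.84 to 20.9 CPM. The low animals were 6 of 8 at Midday, 0 of 8 at Midnight and 3 of 8 under light at night. Among the high animals the 2 of Midday had 8.99 and 9.83 CPM in brain, within the range of the 8 of Midnight, 7.84 to 19.1 CPM. The same held in liver, with 1.31 and 1.52 CPM at Midday and 0.858 to 3.48 CPM at Midnight. Another 5 genes among the 17006 tested split the animals in this way in brain, eye and both skin sites (a gap of at least 4-fold with at least 3 animals on each side), and none of those was called between Midnight and Midday in skin.

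**Figure D5:**
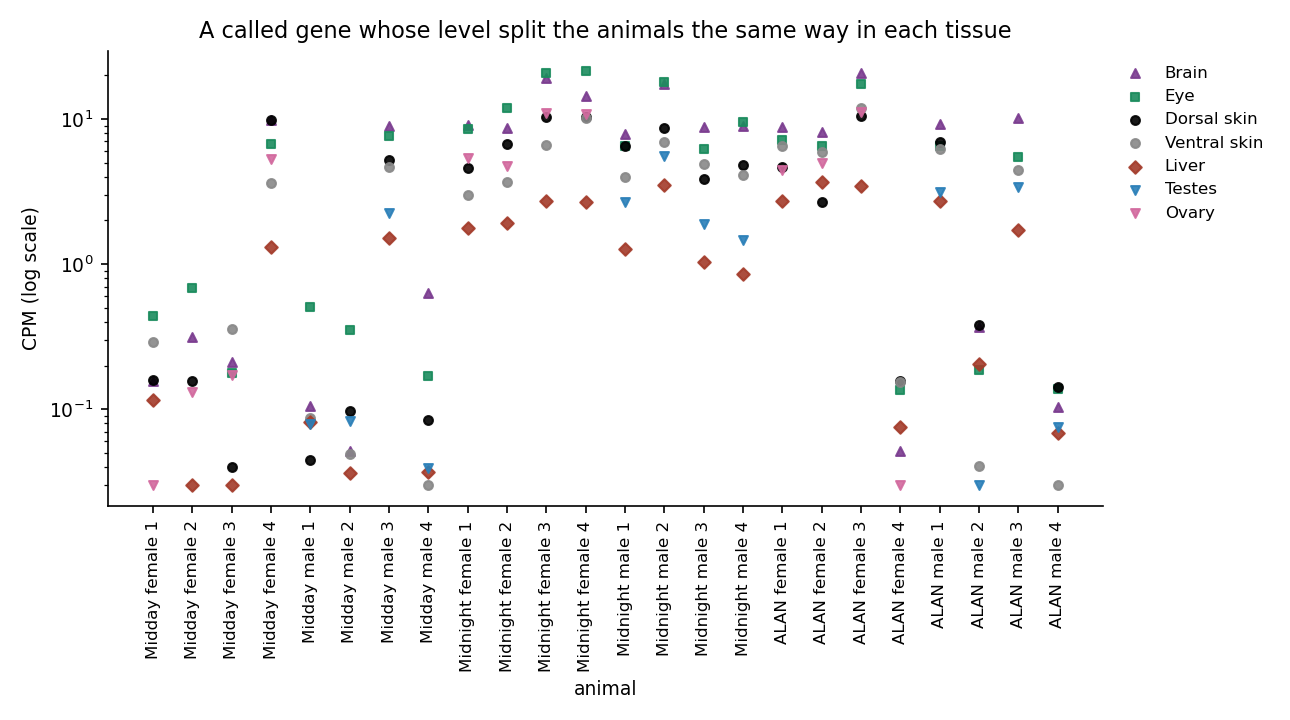
Level of 1 gene called in skin, in CPM on a log scale, in every tissue of the 24 animals, ordered by treatment. Each column is an animal and each symbol a tissue, and values under 0.03 CPM are drawn at 0.03. All tissues of an animal lie on the same side of a gap, with 6 Midday, 0 Midnight and 3 ALAN animals on the low side.

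Among the called genes not described so far, 3 had a log2 change over 2 in size. The single-exon gene at chr3:142460692-142461075 (plus strand) had a log2 change of 4.30 ± 0.91 (SE; adjusted p = 0.028, limma) at low levels, with 0 to 0.545 CPM at Midday and 1.72 to 6.44 CPM at Midnight in ventral skin and overlapping dorsal groups of 0.064 to 1.26 CPM and 0.042 to 4.40 CPM. It was called in 11 of the 16 fits without an animal. Its class term was a log2 of 2.63 that was not called (adjusted p = 0.757, limma), and the part of this in its fitted size was not tested. A gene of 2 exons on scaffold GL343954.1 (5249 to 28831, minus strand) had a log2 change of 2.95 ± 0.67 (adjusted p = 0.041) with no median above 1.57 CPM, and was called in 6 of those fits. The gene of 8 exons on scaffold GL343287.1 (1029995 to 1052525, minus strand) fell, with a log2 change of -2.01 ± 0.37 (adjusted p = 0.0075), and was called in all 16. Its dorsal medians were 163 CPM at Midday and 39.4 CPM at Midnight, without overlap of the groups, and its ventral medians were 111 and 22.5 CPM, with overlap. Of the 39 genes that were lower, 17 had a log2 change under 1 in size, and the smallest was 0.42. Their mean level was a median of 77.3 CPM, against 24.4 CPM for the genes that were higher and 12.5 CPM over all genes tested. Unplaced scaffolds held 63.0% of the genes that were higher and 35.9% of those that were lower, against 49.6% of all genes tested. Liver-enriched genes were 2 of those that were higher (7.41%) and 2 of those that were lower (5.13%), against 297 of all 17006 genes tested (1.75%). The liver list was chosen on liver of all treatments, so a gene low there at Midday could enter it by its level at night. The second gene of the pair on scaffold GL343337.1 had liver medians of 2.12 CPM at Midday and 55.0 CPM at Midnight. The part of this choice in the shares was not tested. The 2 liver-enriched genes that were lower had log2 changes of -1.33 and -1.01 in skin, and 0.27 and -0.26 in liver, where neither passed the test.

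Skin of animals kept under artificial light at night was fitted with the other 2 treatments to place the 4 named genes, and both of its contrasts share libraries with the comparison above. The time at which these animals were killed is not given here, so the parts of time and of light in the differences were not tested. ENSACAG00000002847 had dorsal levels of 113 to 323 CPM (n = 7) and ventral levels of 98.3 to 348 CPM (n = 8) under light, which differed from Midnight by a log2 of 0.18 ± 0.20 (SE; adjusted p = 0.711, limma) and from Midday by 2.67 ± 0.20. ENSACAG00000014818 had dorsal levels of 8.63 to 81.3 CPM and ventral levels of 14.7 to 70.6 CPM, differing from Midday by a log2 of 1.48 ± 0.29 (adjusted p = 0.0117), while its difference from Midnight of -1.05 ± 0.29 did not pass the test (adjusted p = 0.058). ENSACAG00000040060 had 6.29 to 14.9 CPM and 4.97 to 19.1 CPM, higher than at Midnight by 1.08 ± 0.23 (adjusted p = 0.031) and lower than at Midday by a log2 change of -2.59 ± 0.22. ENSACAG00000012009 had 27.9 to 93.9 CPM and 26.1 to 189 CPM, higher than at Midnight by 1.14 (adjusted p = 0.031), while its difference from Midday of -0.88 ± 0.25 did not pass the test (adjusted p = 0.155).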

How the data were processed

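The authors deposited raw read counts per Ensembl gene for whole libraries, with gene coordinates, and per the submitters' processing notes used Trimmomatic, FastQC, STAR 2.7.11a, featureCounts and Subread. Genome build, strand setting and treatment of reads with several matches are not stated in the labels or file, so overlapping, antisense or near-identical genes may share reads. Of the 26479 gene IDs 0 matched the 27148 rows of a RefSeq table (assembly rAnoCar3.1), so the lists of clock, pigment and skin genes and of cell type markers could not be used, and sequences are not shown.

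Counts of both sites were fitted with voomLmFit in edgeR 4.0.16 and limma 3.58.1 (R 4.3.3): TMM scaling, filterByExpr on site by treatment, terms for treatment, site, sex and counting class, the animal as a random block and robust shrinkage. A linear model was taken because edgeR's quasi-likelihood test has no random block. Each skin site alone, with no animal to block, was fitted with that test. Brain, eye and liver were fitted alone, or together with skin for the test between tissues. Levels are CPM on TMM-scaled totals in skin and on raw totals elsewhere, and on raw totals in every tissue for the gene that split the animals. Named genes are the 2 of smallest p in each direction with a mean of at least 1 CPM at each site. The 16 fits that leave out an animal kept the correlation of the full fit. Title numbers pair no animals across treatments, since an animal received a single treatment. The comparison, members and lists were chosen with earlier results of these data known. The fit was also run on simulated counts with an animal effect and genes of known change. These held no effect of site, sex or counting class and no libraries that stood apart. The outcome is not reported here. Tables and figures used Python 3.11.15, pandas 2.3.3 and matplotlib 3.10.9.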

Additional observations from a re-analysis of the deposited data

Results flagged for a closer look

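The change of ENSACAG00000014818 differed between skin and the mean of brain, eye and liver (adjusted p = 7.70e-05, limma), and so did that of ENSACAG00000040060 (adjusted p = 3.86e-11).

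Of 44 sets of values, each 1 measure in 1 group of libraries, 11 held a single value far from the rest. The sets reuse the same libraries, so their count cannot be set against the chance rate of about 1 in 20 per set. ENSACAG00000012009 stood at 63.7 CPM in dorsal skin of Midnight male 4. That animal also held the highest shares of testes-enriched counts among Midnight libraries, 1.06% in dorsal and 1.45% in ventral skin, and 1.85% liver-enriched counts in dorsal skin. Ventral skin of Midday male 2 held 1.74% testes-enriched counts. Eye-enriched counts stood at 17.9% in ventral skin of Midnight female 1, where 83 of 212 eye-enriched genes tested exceeded 10 times the median of libraries with at most 1%, and at 10.6% in ventral skin of Midday female 4, where 80 did. In each of these 2 libraries 20 genes gave about 90% of that share (89.6% and 90.0%). The same library of Midday female 4 held 5.82% liver-enriched counts, and ventral skin of Midnight female 4 held 2.66%. Brain-enriched counts were 0.56% in dorsal skin of Midnight female 4. Mitochondrial counts were 2.33% in ventral skin of Midnight male 2, with the next at 1.58%. The part of these shares in the day-night differences was not tested beyond the fits without those libraries.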

How the results depend on the processing

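The number of genes called between Midnight and Midday in skin was 66, and several alternatives gave more: 308 with no animal block (all 66 among them), 456 by edgeR's quasi-likelihood test and 1327 by DESeq2 1.42.0, which change the test and also have no animal block, 356 with the replicate block (sex and title number as fixed terms, which pair no animals here, with the animal still random), 544 with sample weights and 166 with no class term. Fewer were called from sums per animal by edgeR's test (18, 14 of them among the 66), in the high class of even counts (22), in dorsal skin alone (3) and in ventral skin alone (11), each of which uses fewer libraries or values. The fits of a site alone also change the test to edgeR's quasi-likelihood test. The sums per animal change it too and have no class term. Without libraries that stood apart the count was 242 and without those over 1% eye-enriched it was 23, both chosen after seeing the data. Without each animal it ran from 17 to 329. RLE factors (76), no filter (67) and the ALAN libraries in the fit (74) stayed within 1.5 times. The comparison of sexes gave 1 gene by edgeR's test and 0 to 1 without each animal, and that of sites gave 0 throughout. The comparison of tissues (264) gave 129 with no animal block, 544 with no class term, 224 with RLE factors, 198 with no filter and 70 to 857 without each animal. Where not said, the cause was not tested. The 4 named genes kept their direction in all 31 alternatives, which their choice on the same libraries largely fixed. They were called in each, with exceptions in the fits of a site alone (edgeR's quasi-likelihood test). These were ENSACAG00000002847, ENSACAG00000014818 and ENSACAG00000012009 in dorsal skin (adjusted p = 0.0914 for each) and the last in ventral skin (0.107). No outcome here bears on genes that depth left under the filter.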

Other observations

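Among the 66 called genes, the animal nearest the other treatment was not spread evenly. With levels centred on the site and averaged over the sites of an animal, Midday male 2 was the Midday animal closest to the Midnight values in 31 of the 66 genes, against 1 to 10 for each other Midday animal. Among the Midnight animals, females 1 and 2 were each closest to the Midday values in 16 genes and male 4 in 13, against 1 to 8 for the others. Both libraries of Midday male 2, the ventral library of Midnight female 1 and the ventral library of Midnight male 4 were among the 5 that stood apart. No test was made of these counts, since the genes were chosen on the same libraries.

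A log2 change over 2 in size was also fitted for 144 genes that did not pass the test, and 128 of these had a positive sign at Midnight. Skin-enriched genes were 11 of the 128 and 1 of the 16 of negative sign (1.06% of all genes tested), eye-enriched genes 6 and 0 (1.25%), liver-enriched genes 1 and 0 (1.75%) and testes-enriched genes 2 and 3 (4.23%). The skin-enriched list was chosen on skin under light at night, and the part of this in its 11 genes was not tested.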
